A study of Homo sapiens with 3 samples.

Results

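Genes of the WNT pathway, 10 in number, were followed across RWPE1, an established line of benign prostate epithelium that had been immortalised with papillomavirus sequence. They were chosen by name, with earlier results of these data known. Every array probe annotated to them was taken: 14 probes for 10 of the 16922 genes named on the array. SFRP1, DKK1 and DKK3 are secreted proteins of inhibitor families and APCDD1L is a relative of the inhibitor APCDD1. WNT7A and WNT7B are ligands, FZD6 and LRP6 are receptors, and the last 2, AXIN2 and CTNNB1, act inside the cell. One culture had been infected with a retrovirus carrying MYC, one with a retrovirus carrying the constitutively active PI3K mutant E545K, and one with the empty vector PMN. All were grown in the same serum-free medium with pituitary extract and EGF, with no further treatment, and each gave 1 Illumina array. With 1 array per group there is no replicate, no test and no p-value, and every difference below describes a pair of arrays.

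WNT proteins are secreted lipid-modified ligands. They bind a Frizzled receptor together with the co-receptor LRP5 or LRP6, which disables the complex of AXIN, APC and GSK3 that otherwise marks beta-catenin (CTNNB1) for destruction, and beta-catenin then acts with TCF/LEF factors on target genes. SFRP proteins bind the ligands outside the cell and DKK1 blocks the LRP co-receptors. In prostate epithelium the pathway is known for its part in basal and progenitor cell growth.

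The level of a probe is given as its fluorescence signal in arbitrary units on the vector array's scale, with no background subtracted. Differences are log2 differences in the authors' deposited table, where 1 unit is a doubling. On the MYC-labelled array and the vector array a probe counted as above background when its detection p-value was under 0.01. No detection column is named for the PI3K array, and there a signal of at least 283.7 was required as a substitute. Scanner columns that name no sample were not used, and whether they hold the PI3K array is not known, so every background call and bound on the PI3K array rests on this substitute. For scale, the difference between 2 probes of the same gene had an SD per probe of 0.204 for the MYC-labelled array and 0.207 for the PI3K array, each against the vector, over 719 genes. This is a technical spread only.

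The introduced MYC gene was not higher on its own array: the MYC probe read 5229 on the MYC-labelled array, 3520 on the PI3K array and 6229 on the vector array. The probe's place relative to the introduced sequence is not known here, so its array is called MYC-labelled below and every direction drawn from it rests on that label. Of 5 basal epithelial markers on the array 5 were above background, as were the 2 general epithelial markers CDH1 and EPCAM and 3 of 4 luminal markers on the array (KRT8, KRT18 and KRT19, with KLK3 the exception). Of 3 leukocyte markers CD68 was above background, at 1275 on the MYC-labelled array, 1506 on the PI3K array and 1278 on the vector array, while PTPRC and CD3E were not. Of 7 stromal markers only ACTA2 was above background, and COL1A1, COL1A2, COL3A1, DCN, LUM and PDGFRB were not. No endothelial or neuroendocrine marker was above background on any of the arrays. Over all genes measured the median difference from the vector was 0.07 for the MYC-labelled array and 0.05 for the PI3K array.

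Signals of SFRP1 and DKK3 were lower on both oncogene arrays than on the vector array, DKK1 was lower on the MYC-labelled array, and APCDD1L was higher on both. WNT7A, FZD6 and CTNNB1 lay within 0.29 log2 units of the vector on both arrays. WNT7B, LRP6 and AXIN2 were not above background on any array. This left 7 of the 10 genes, read by 8 of the 14 probes, as measured.

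The inhibitors are taken first. SFRP1, a secreted Frizzled-related protein that binds WNT ligands, read 1902 on the MYC-labelled array, 1759 on the PI3K array and 6343 on the vector array. The oncogene arrays lay close together and well under the vector array. Its difference from the vector was -1.74 on the MYC-labelled array, or 3.34-fold lower, which was rank 153 from the lowest of 8147 genes. For the PI3K array it was -1.85, or 3.61-fold lower, rank 71 from the lowest of 8136 genes. Both differences were several times the spread between probes, and SFRP1 has 1 probe on the array, so no second probe checks it.

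DKK3 is a divergent member of the Dickkopf family that is not known to act on LRP co-receptors the way DKK1 does. It has 4 probes. Of these, ILMN_2398159 read 1303 on the MYC-labelled array, 2780 on the PI3K array and 6989 on the vector array. A second, ILMN_1815673, read 1085 on the MYC-labelled array, 2383 on the PI3K array and 6224 on the vector array. Both probes put the MYC-labelled array lowest, the PI3K array between and the vector array highest. Differences from the vector were -2.42 and -2.52 on the MYC-labelled array, and -1.33 and -1.39 on the PI3K array, so the probes differed by less than the spread between probes. The brighter probe was 5.36-fold lower on the MYC-labelled array (rank 75 from the lowest) and 2.51-fold lower on the PI3K array (rank 173 from the lowest). The other 2 DKK3 probes read between 100.4 and 250.8 and were not above background on any array, and one of them is annotated to another transcript of the gene.

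DKK1, the Dickkopf protein that binds LRP5 and LRP6, is itself a known target of beta-catenin and TCF in other cell types. Its probe read 122.9 on the MYC-labelled array, 431.5 on the PI3K array and 578.9 on the vector array. The signal on the MYC-labelled array was not above background (detection p-value 0.408), so DKK1 was at least 2.04-fold lower there than on the vector array. The deposited difference of -2.24 takes that dim signal at its face value. On the PI3K array the difference from the vector was -0.42, or 1.34-fold lower, which is about 2 times the spread between probes.

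The sequence before the DKK1 start is shown because DKK1 had, in the deposited values, the widest gap of the 10 genes between the oncogene arrays. It is the 250 bases before the annotated start in RefSeq on GRCh38.p14, chr10:52314031-52314280, plus strand, 5′ to 3′, with matches to CTTTGA, the core letters that TCF/LEF factors bind, in capitals.
DKK1: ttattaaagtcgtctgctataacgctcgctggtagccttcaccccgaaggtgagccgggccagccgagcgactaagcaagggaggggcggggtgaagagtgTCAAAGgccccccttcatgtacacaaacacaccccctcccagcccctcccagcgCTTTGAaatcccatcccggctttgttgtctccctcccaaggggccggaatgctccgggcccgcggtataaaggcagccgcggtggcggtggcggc
The matches begin 149 and 95 bases before the start, the first of them on the opposite strand, where the printed strand reads TCAAAG. On either strand the motif was present in 11.2% of 35116 promoters of this length. Of the 10 genes 3 had an entry (DKK1, WNT7A and CTNNB1), and DKK1 was the 1 of these 3 with a match. The E-box CACGTG that MYC and its partner bind, the forkhead motif GTAAACA and the interferon-stimulated response element were searched for on both strands. They had 0 matches in the 3 promoters and were present in 6.34%, 2.98% and 3.02% of all promoters, in that order. These are letter matches in one window and describe no binding.

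APCDD1L, named for its similarity to the membrane-bound WNT inhibitor APCDD1, went the other way. Its probe read 2387 on the MYC-labelled array, 1420 on the PI3K array and 554.5 on the vector array. The order was the reverse of that of DKK3. The difference from the vector was 2.11 on the MYC-labelled array, or 4.30-fold higher and rank 11 from the highest of 8147 genes. Against the vector, the PI3K array gave 1.36, or 2.56-fold higher and rank 28 from the highest of 8136. Whether APCDD1L inhibits WNT signalling as APCDD1 does is not settled by its name, and it is counted with the inhibitors on that name alone.

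**Figure D1:**
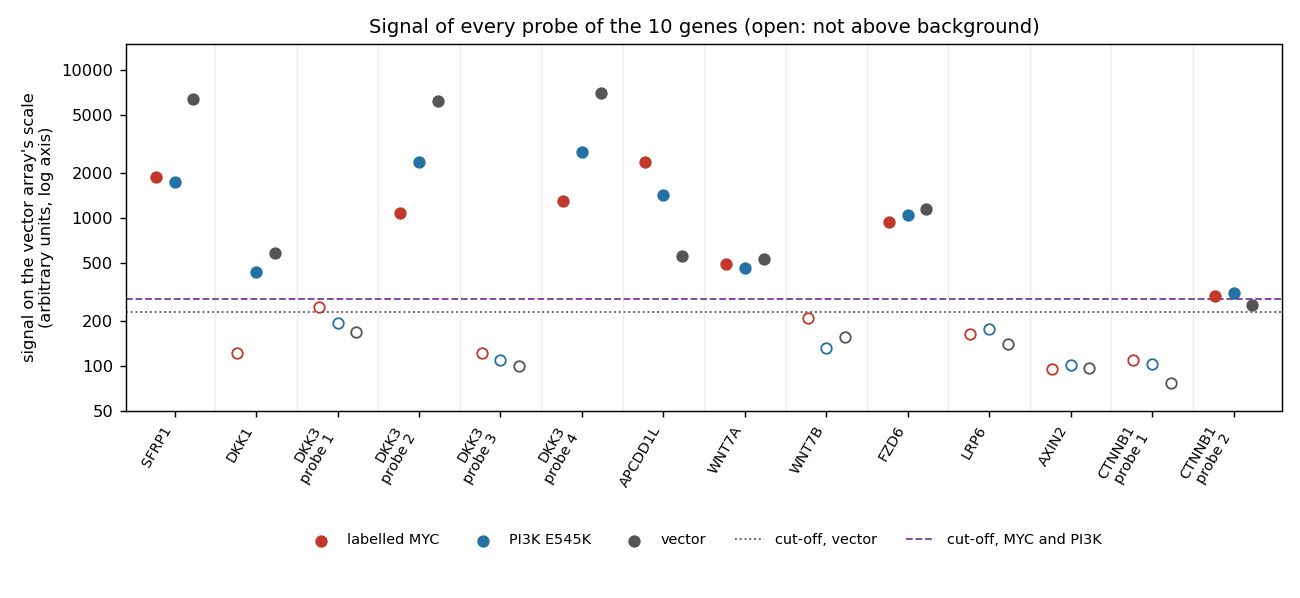
Signal of each of the 14 probes on the vector array's scale (arbitrary units, log axis), 1 point per array, with the MYC-labelled array, the PI3K array and the vector array from left to right. Open points were not above background and the lines mark the lowest signals called above it (233.3 on the vector array, 283.7 on the others). SFRP1 and the brighter DKK3 probes are highest on the vector array, APCDD1L is lowest there, and WNT7A, FZD6 and CTNNB1 are nearly level.

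The ligands come next. WNT7A, a ligand of epithelial cells, read 488.7 on the MYC-labelled array, 460.1 on the PI3K array and 529.2 on the vector array. The differences of -0.12 on the MYC-labelled array and -0.20 on the PI3K array were no larger than the spread between probes. WNT7B, its close relative, read 210.9 on the MYC-labelled array, 132.9 on the PI3K array and 158.0 on the vector array. Its detection p-values were 0.0482 on the MYC-labelled array and 0.0602 on the vector array, so no fold is given.

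Of the receptors, FZD6, a Frizzled also known for planar cell polarity, read 938.4 on the MYC-labelled array, 1041 on the PI3K array and 1147 on the vector array. The difference of -0.29 on the MYC-labelled array was somewhat above the spread between probes, and that of -0.14 on the PI3K array was below it. LRP6, the co-receptor that DKK1 blocks, read 165.0 on the MYC-labelled array, 177.4 on the PI3K array and 141.6 on the vector array. These signals were not above background, so a change in LRP6 was not detectable here.

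Inside the cell, CTNNB1 (beta-catenin) read 296.1 on the MYC-labelled array, 312.0 on the PI3K array and 257.1 on the vector array by the 1 of its 2 probes above background. All of these signals lay just over the cut-offs. The difference of 0.20 on the MYC-labelled array was close to the spread between probes, and that of 0.28 on the PI3K array was somewhat above it. That spread was not computed for dim signals alone, so it is a weak yardstick for CTNNB1. The array measures RNA, while the pathway acts on the stability of the protein. AXIN2, a scaffold of the destruction complex and a widely used target gene of the pathway, read 95.9 on the MYC-labelled array, 101.4 on the PI3K array and 96.4 on the vector array. All were in the range of background, so these arrays give no reading of pathway output through AXIN2.

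Set against all genes, 3 of the 7 measured genes were at least 2-fold lower on the MYC-labelled array than on the vector array (SFRP1, DKK1 and DKK3), against 4.77% of 8147 genes. One of the 7, APCDD1L, was at least 2-fold higher, against 2.31%. On the PI3K array 2 of 7 were at least 2-fold lower than on the vector array (SFRP1 and DKK3), against 4.04% of 8136 genes, and 1 was at least 2-fold higher (APCDD1L), against 1.20%. The 4 inhibitors had a median difference from the vector of -1.99 on the MYC-labelled array (-1.38 with DKK1 at its bound) and -0.88 on the PI3K array. The 3 measured genes among the ligands, receptors and intracellular components had medians of -0.12 on the MYC-labelled array and -0.14 on the PI3K array. Both comparisons use the same vector array, so a high or low reading there would move both in the same direction. The genes were chosen with earlier results of these data known. Their shares past 2-fold therefore cannot show enrichment over the shares of all genes, which are given for scale only.

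**Figure D2:**
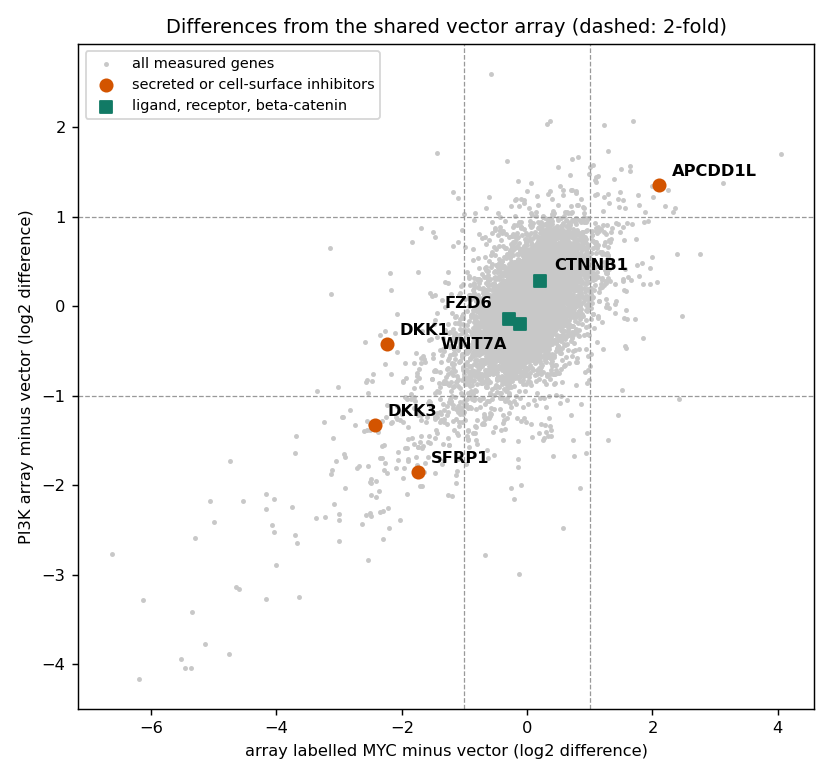
Log2 difference of each measured gene from the vector array on the MYC-labelled array (x axis) and on the PI3K array (y axis). Grey points are all 8270 genes above background on at least 1 array, orange circles the inhibitors and green squares the ligand, receptor and beta-catenin, and dashed lines mark 2-fold. SFRP1 and DKK3 lie past 2-fold at the lower left, APCDD1L at the upper right, and DKK1 past it on the x axis alone, where its value of -2.24 uses a signal below background.

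Between the oncogene arrays, DKK3 was lower on the MYC-labelled array than on the PI3K array by a log2 difference of -1.09 (2.13-fold). DKK1 was at least 1.52-fold lower there, with a deposited difference of -1.81. These were the 2 of 7 measured genes past 2-fold in the deposited values, against 2.63% of 7804 genes lower. DKK3 alone passed with DKK1 at its bound. Here too the choice of genes with earlier results known means that the contrast cannot show enrichment. APCDD1L was 1.68-fold higher on the MYC-labelled array than on the PI3K array, at 0.75. SFRP1 differed by 0.11, less than the spread between probes of 0.183 in this comparison. WNT7A (0.09), FZD6 (-0.15) and CTNNB1 (-0.08) did so too.

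The wider pathway was read through 104 further genes listed by role, of which 96 were on the array and 39 were above background on at least 1 array. Of 17 further WNT genes 1 was above background, WNT10A, at 274.5 on the vector array and below background on the oncogene arrays. WLS, which carries WNT proteins to the cell surface, read 3497 on the MYC-labelled array, 4131 on the PI3K array and 4018 on the vector array by its brightest probe. That probe gave -0.20 and 0.04 from the vector for the MYC-labelled array and the PI3K array, while its 2 other probes gave -0.78 and -0.70 on the MYC-labelled array and -0.51 and -0.45 on the PI3K array. Of 7 R-spondins, their LGR receptors and the ligases that remove Frizzleds, 0 were above background.

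Among 5 further receptors measured, FZD4 was at least 1.69-fold lower on the MYC-labelled array and on the PI3K array, being above background on the vector array alone, at 478.9. FZD7 gave 0.44 on the MYC-labelled array and 0.15 on the PI3K array. FZD2 gave -0.02 on the MYC-labelled array and 0.62 on the PI3K array. The co-receptors of the tyrosine kinase type, RYK and PTK7, lay within 0.21 log2 units of the vector on both arrays by their brightest probes. A second PTK7 probe gave -0.39 on the MYC-labelled array, where it was not above background, and -0.17 on the PI3K array. Of 14 further inhibitors on the array only KREMEN2, a receptor for DKK proteins, was above background, and it gave 0.49 on the MYC-labelled array and 0.02 on the PI3K array.

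In the destruction complex, 4 further genes were measured and 0 passed 2-fold. GSK3B, the kinase that phosphorylates beta-catenin, was the highest of them at 0.55 on the MYC-labelled array and 0.57 on the PI3K array. The scaffold AXIN1 gave 0.39 on the MYC-labelled array and 0.23 on the PI3K array. The kinase CSNK1A1 was the lowest on the MYC-labelled array at 0.15, and AMER1, which binds APC, was the lowest on the PI3K array at -0.24.

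Genes of the TLE family of corepressors, which act with TCF factors when beta-catenin is low, held the lowest deposited values among the transducers. On the PI3K array this leaves out TLE5, which lay above the transducers CBY1 (-0.54) and CSNK1E (-0.40). TLE4 read 271.9 on the MYC-labelled array, 221.2 on the PI3K array and 647.2 on the vector array. It was above background on the vector array alone and at least 2.28-fold lower on both oncogene arrays. TLE2, above background on the vector array alone at 303.7, had deposited differences of -1.43 on the MYC-labelled array and -1.42 on the PI3K array, but a bound of only 1.07-fold. TLE1 gave -0.57 on the MYC-labelled array and -0.55 on the PI3K array, within the detected range of all arrays. The shorter relative TLE5 gave -0.82 on the MYC-labelled array and -0.06 on the PI3K array, and its second probe gave -0.44 and 0.40. The highest transducers were PYGO2, a nuclear partner of beta-catenin, at 0.42 on the MYC-labelled array and 0.78 on the PI3K array, and CTNNBIP1, which blocks the binding of beta-catenin to TCF, at -0.16 on the MYC-labelled array and 0.82 on the PI3K array.

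Genes known as targets or feedback regulators did not pass 2-fold on the MYC-labelled array (0 of 7 measured). The 7 include MYC, the introduced gene, at -0.25 on that array by a probe whose place relative to the introduced sequence is not known. The lowest on the MYC-labelled array was the growth factor BMP4, at least 1.42-fold lower on both oncogene arrays. The highest was the Notch ligand JAG1 at 0.29. On the PI3K array 6 of 7 lay under the vector, as did 44.9% of all genes measured, with a median of -0.59 (-0.41 with dim genes at their bound). BMP4 and NKD2 are among the 6 and were not above background on the PI3K array, so in this comparison they passed the filter only through the vector array. NKD2, which binds Dishevelled and dampens the pathway, read 435.6 on the MYC-labelled array, 142.5 on the PI3K array and 356.8 on the vector array. It was at least 1.26-fold lower on the PI3K array than on the vector array, with a deposited difference of -1.32. NKD2 was also the 1 of 31 further genes whose deposited value passed 2-fold upward between the oncogene arrays (1.61, MYC-labelled minus PI3K), against 2.29% of all genes, with a bound of at least 1.54-fold. Others on the PI3K array were MYC at -0.82, JAG1 at -0.59, BAMBI at -0.41 and the cyclin CCND1 at -0.30, and the highest was the adhesion receptor CD44 at 0.16.

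Planar polarity genes serve the branch of WNT signalling that does not use beta-catenin. Of the 6 measured, 3 (PRICKLE1, PRICKLE2 and CELSR3) were above background on the vector array alone and passed the filter only through it, and 3 (DAAM1, VANGL2 and CELSR2) were above background on every array. DAAM1, a formin downstream of Dishevelled, read 579.8 on the MYC-labelled array, 855.7 on the PI3K array and 1290 on the vector array, giving differences of -1.15 and -0.59 from the vector. PRICKLE1 read 173.9 on the MYC-labelled array, 141.1 on the PI3K array and 566.6 on the vector array. It was not above background on the oncogene arrays, where its bound of -0.998 on the log2 scale fell just short of 2-fold. VANGL2 gave -0.63 on the MYC-labelled array and -0.08 on the PI3K array, and CELSR2 gave -0.12 and -0.49. No fold can be given for CELSR3, whose vector signal of 236.2 lay under the cut-off of the oncogene arrays. In all, 5 of 38 further genes measured were at least 2-fold lower than the vector on the MYC-labelled array (2 with dim genes at their bound) and 0 higher. Over all genes the share lower was 4.77%, or 3.57% with dim genes at their bound, so the count with bounds is near the background. For the PI3K array 4 of 39 were lower (1 with dim genes at their bound) and 0 higher, where the share of all genes lower was 4.04%, or 3.18% with bounds, and the count with bounds is again near it. The median was -0.08 on the MYC-labelled array and -0.10 on the PI3K array, against 0.07 and 0.05 over all genes. These medians include genes that passed the filter only through the vector array, at their face value. With both arrays of a pair above background the medians were 0.04 and 0.02, against 0.09 and 0.07 over all genes. The wider list was also chosen with earlier results of these data known, so its contrasts with all genes are descriptive.

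**Figure D3:**
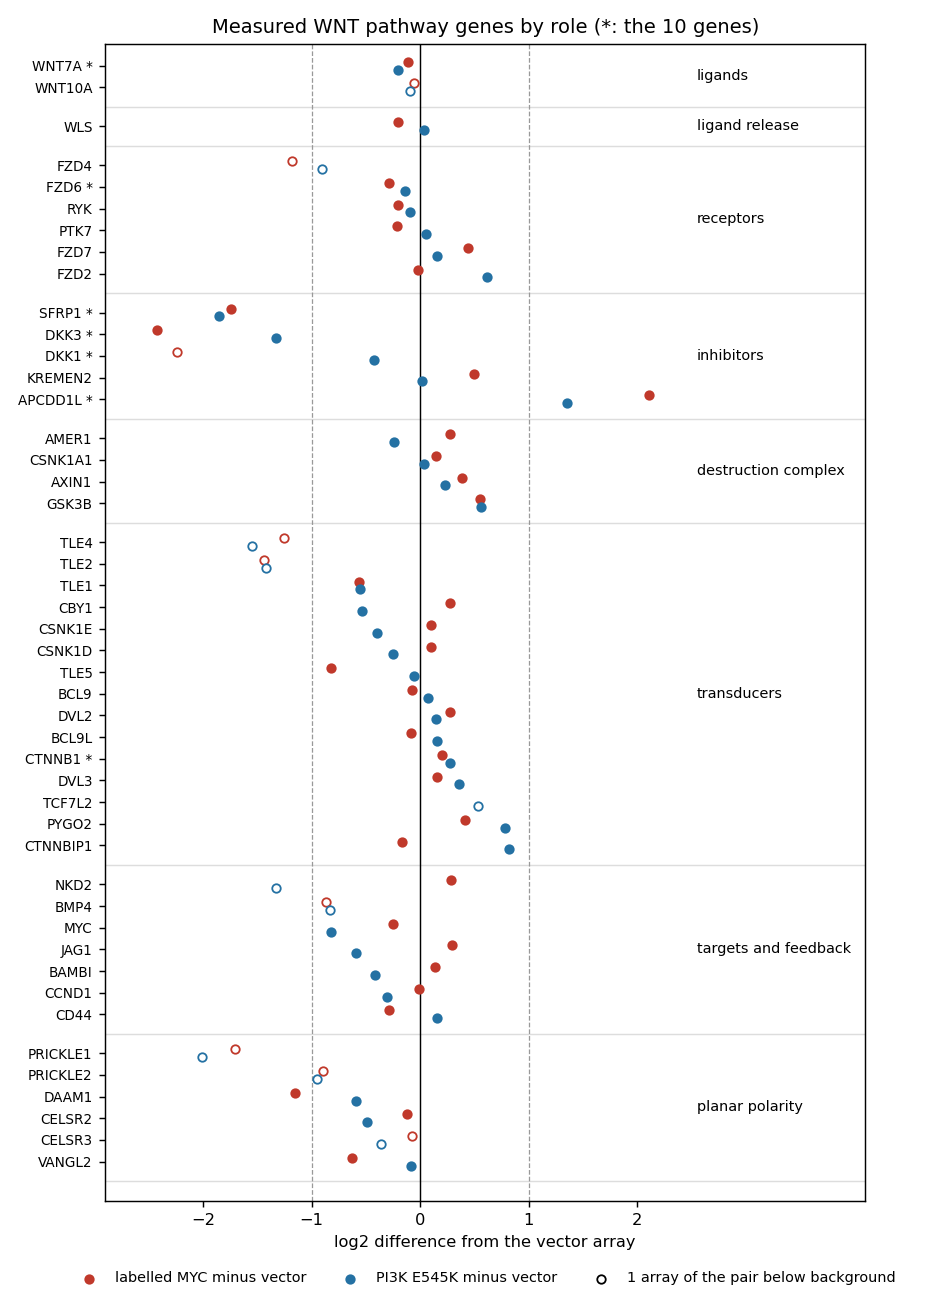
Log2 difference from the vector array for each measured gene of the WNT list, grouped by role, with the MYC-labelled array in red and the PI3K array in blue. Open points have 1 array of the pair below background, dashed lines mark 2-fold and asterisks mark the 10 genes. The points farthest from 0 that are above background on both arrays of the pair belong to SFRP1, DKK3 and APCDD1L, and the destruction complex lies within 0.57 log2 units of the vector.

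Epithelial markers differed between the arrays in both directions. The summed signal of the 5 basal markers measured was 16784 on the MYC-labelled array, 34916 on the PI3K array and 48773 on the vector array. The sum for the MYC-labelled array includes KRT15 at 166.0, which was not above background there. The keratins KRT5 and KRT14 gave -1.66 and -1.98 on the MYC-labelled array, and -0.56 and -0.85 on the PI3K array, and KRT15 was at least 7.86-fold lower on the MYC-labelled array and gave -2.25 on the PI3K array. The integrins did not follow the keratins: ITGA6 gave 0.25 on the MYC-labelled array and 0.99 on the PI3K array, and ITGB4 gave -0.23 and 0.72. Luminal markers above background (KRT8, KRT18 and KRT19) summed to 2790 on the MYC-labelled array, 6371 on the PI3K array and 9722 on the vector array. Of these KRT19 gave -2.58 on the MYC-labelled array and -0.85 on the PI3K array, and KRT8 gave -0.90 and -0.10. KRT18 was above background on the MYC-labelled array alone, at least 1.29-fold higher than on the vector array. The luminal sums for the PI3K array and the vector array include its dim signals of 146.3 and 148.2. The general markers gave 1.04 and 0.79 for EPCAM and -0.45 and -0.30 for CDH1, in the same order of arrays. The part of these markers in the result was not tested. In RNA from a whole culture, fewer cells of a type and less RNA per cell cannot be told apart.

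Genes with the most similar pair of differences from the vector were found by distance over the same 2 differences, which rest on 3 arrays. Nearest to SFRP1 were the peptidase gene MME (-1.76 on the MYC-labelled array and -1.78 on the PI3K array), NCOA7 (-1.65 and -1.86) and the receptor LPAR6 (-1.63 and -1.75), in that order of arrays. MME and LPAR6 were above background on the vector array alone, so their distances take dim signals at face value and only that of NCOA7 is measured on every array. Nearest to DKK3 were the methyltransferase NNMT (-2.38 on the MYC-labelled array and -1.40 on the PI3K array), TM4SF1 (-2.51 and -1.32) and TENT5B (-2.51 and -1.38). The genes of the DKK3 group were above background on every array. No neighbours are given for DKK1, since its distance to any gene rests on a signal below background.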

How the data were processed

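RNA from 3 RWPE1 cultures was labelled as biotinylated cRNA and hybridised to Illumina arrays of 24526 probes, per the labels' protocols, and the submitters' processing notes name GenomeStudio. The authors deposited linear signal intensity values that were not normalised, per the file headers. Each comes with a deposited detection value, a fraction that rises with the signal (rank correlation 0.981 for the MYC-labelled array and 0.976 for the vector array) and was taken as 1 minus the detection p-value. Sample columns that match no label (2 of them) were left out. A second table by the authors holds log2 values of all 3 arrays, centred by a constant per probe whose origin is unknown, with column medians of 0.07 (MYC-labelled), 0.04 (PI3K) and -0.16 (vector). MYC-labelled minus vector in it is the log2 ratio of the signals plus 0.52, which is the scaling by the 75th percentiles of the signals (393.8 for the MYC-labelled array and 563.5 for the vector array). That the PI3K column was made likewise was assumed.

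Differences were taken in the log2 table. Levels put each difference back on the vector array's signal, so PI3K levels are rebuilt, and the PI3K cut-off is the higher one of the other arrays. Current symbols were found by gene ID for 21813 of the 21834 probes with 1 symbol (0 have several), and 2692 probes are unnamed here. Each gene was read by its brightest probe that passed background on any array, giving 8270 genes. A comparison used genes that passed on at least 1 of its arrays. Where the probe passed on 1 of them only, the fold is a bound against the lowest signal called above background on the dim array, or the probe's own signal where that is higher. The calculation was tested on simulated data. The number of arrays limits the precision. Named are the 10 genes, listed genes 2-fold from the vector, the highest and lowest of each role with at least 3 measured genes, and the 3 genes nearest to SFRP1 and DKK3 (those of DKK1 were left out because its signal on the MYC-labelled array is below background). Other listed genes named were chosen after their values were seen. Among them are WNT10A, WLS, RYK, PTK7, KREMEN2, FZD9, AXIN1, TLE1, TLE5, CBY1, CSNK1E and lesser targets. The members, lists and motifs were chosen with earlier results of these data known. Alternatives used limma 3.58.1 in R 4.3.3, and the rest Python 3.11.15 and pandas 2.3.3.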

Additional observations from a re-analysis of the deposited data

How the results depend on the processing

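Of the 10 genes, 3 lower and 1 higher on the MYC-labelled array and 2 lower and 1 higher on the PI3K array were counted under normexp correction with quantile normalisation, median centring, a detection p-value under 0.05, no detection filter and the mean of probes, and, chosen after seeing the data, with dim genes at their bound. With both arrays required above background DKK1 dropped out, leaving 2 lower on the MYC-labelled array, and 1 gene lower between the oncogene arrays in place of 2 (also 1 with dim genes at their bound). The further listed genes moved more. On the MYC-labelled array, 5 lower became 1 with both arrays above background, 2 with bounds and 10 with unscaled signals, and 0 higher became 1 (FZD9) at a detection p-value under 0.05 or with no filter. On the PI3K array 4 lower became 0 with both arrays above background and 1 with bounds. Between the oncogene arrays, 1 higher (NKD2) became 0 with both arrays above background or with bounds, and 0 lower became 1 (CTNNBIP1) under normexp. Unscaled signals exist for the MYC-labelled array and the vector array alone. They shift the median of all genes by -0.52, so that higher genes make up 4.47% of all 2-fold calls in place of 32.6%, and turn CTNNB1 to -0.31, which is above that shift. SFRP1 (-2.25), DKK3 (-2.94) and APCDD1L (1.59) kept their directions there. With no filter the median of all genes moved by 0.16 and 0.15 for the MYC-labelled array and the PI3K array. No value past 2-fold changed sign, and 180 of 196 single values and medians moved by less than the spread between probes. Much of that tally could not have come out otherwise. A changed filter left each single-gene value as it was, and the mean of probes could move DKK3 alone. Median centring moved every gene of a comparison by the same small amount. The tally is therefore no measure of how firm the values are. No paired analysis was possible because each group has 1 array and the results come from no test. The limits are the single arrays, signals near background for CTNNB1 and DKK1, and the rebuilt PI3K signals.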
